A study of Mus musculus with 6 samples.

Results

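Genes that copy DNA in S phase were followed in whole ovaries of mice at postnatal day 14, by RNA sequencing of 6 pooled libraries. The list holds 43 genes of replication licensing, the replicative helicase, the sliding clamp, the DNA polymerases, nucleotide supply and the S-phase cyclins. Its members were matched by gene symbol to the deposited table of 37924 genes, where 41 were found and all 41 were tested. The 2 further genes of the list were not analysed here. The 3 cKO (conditional knockout) libraries came from mice homozygous for the floxed allele that the study targets and carrying Gdf9iCre, in which the promoter of the oocyte gene Gdf9 drives Cre recombinase. The 3 control libraries were made from homozygotes for that floxed allele without Cre. All mice were of the strain C57BL/6J/129S7/SvEvBrd and of the same age, 14 days after birth. A library holds 3 ovaries of 3 mice, 1 per animal, pooled, and an SD or a p here measures the variation among such pools. The comparison asks which ovarian transcripts differ when the allele is deleted in oocytes.

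Before S phase, the origin recognition complex, Cdc6 and a further loading factor place the MCM ring on DNA, a step called licensing, which geminin restrains. Cyclin-dependent kinases with cyclin E and cyclin A then fire the origins, Cdc45 and GINS join the ring to form the CMG helicase, and the polymerases copy the strands with the help of the PCNA clamp. Many of these genes are transcribed through E2F factors as cells enter the cycle. In the juvenile ovary the granulosa cells of growing follicles divide, while the oocytes they enclose are arrested in meiosis and do not replicate their DNA.

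The estimated depth was 22.5 to 24.9 M fragments (M for 1e6) in cKO libraries and 19.6 to 22.7 M in control libraries. At that depth the member with the fewest fragments, Gins3, had about 247 in its lowest library. Mitochondrial genes made up 7.31%, 13.9% and 10.7% of summed FPKM in cKO 1 to 3, against 11.9%, 13.8% and 14.2% in control 1 to 3. The neutrophil gene S100a9 stood at 307 FPKM in cKO 3 and at no more than 0.853 FPKM in the other 5 libraries. FPKM are fragments scaled to transcript length and library size, so levels of different genes can be set side by side. Changes are differences of log2(FPKM + 1), cKO minus control, from limma fitted on 14934 genes with a mean of at least 0.5 FPKM, and SE is the standard error of such a change. A gene passed the test at a Benjamini-Hochberg adjusted p below 0.05, and only then is it said to have risen or fallen.

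Transcripts of the replication machinery were lower in cKO ovaries across nearly the whole list. Of the 41 genes, 11 fell, 0 rose and 30 did not pass. The 11 that fell were Ccna2, Rrm2, Gmnn, Pold1, Ccne2, Cdc45, Cdc6, Pcna, Prim1, Rfc4 and Mcm10. They make up 26.8% of the members, where 2.09% of all genes tested fell and 2.24% rose. At an unadjusted p below 0.05 limma gave 34 members lower and 0 higher, 82.9% of the list against 9.80% of all genes lower at that level. In 35 members, 85.4% of the list, every cKO library lay below every control library, against 12.0% of all genes. The log2 change was negative in 39 members, 95.1% of the list, against 41.5% of all genes. Its median over the members was -0.37, with a range from -0.75 to 0.09, beside a median of 0.05 over all genes tested. The list was chosen with earlier results of these data known, so these counts describe it and do not test it. In whole ovary, fewer cells of a type and less RNA per cell cannot be told apart.

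The members that did not pass were close to the threshold in many cases. Their lowest adjusted p was 0.0530, that of Rpa3, and 14 of the 30 had an adjusted p below 0.1. The groups overlapped in 6 members, namely Orc1, Mcm7, Rfc1, Pola2, Pole and Rpa1. Only Rfc1 and Rpa1 had positive log2 changes, of 0.09 and 0.06, and neither passed.

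**Figure D1:**
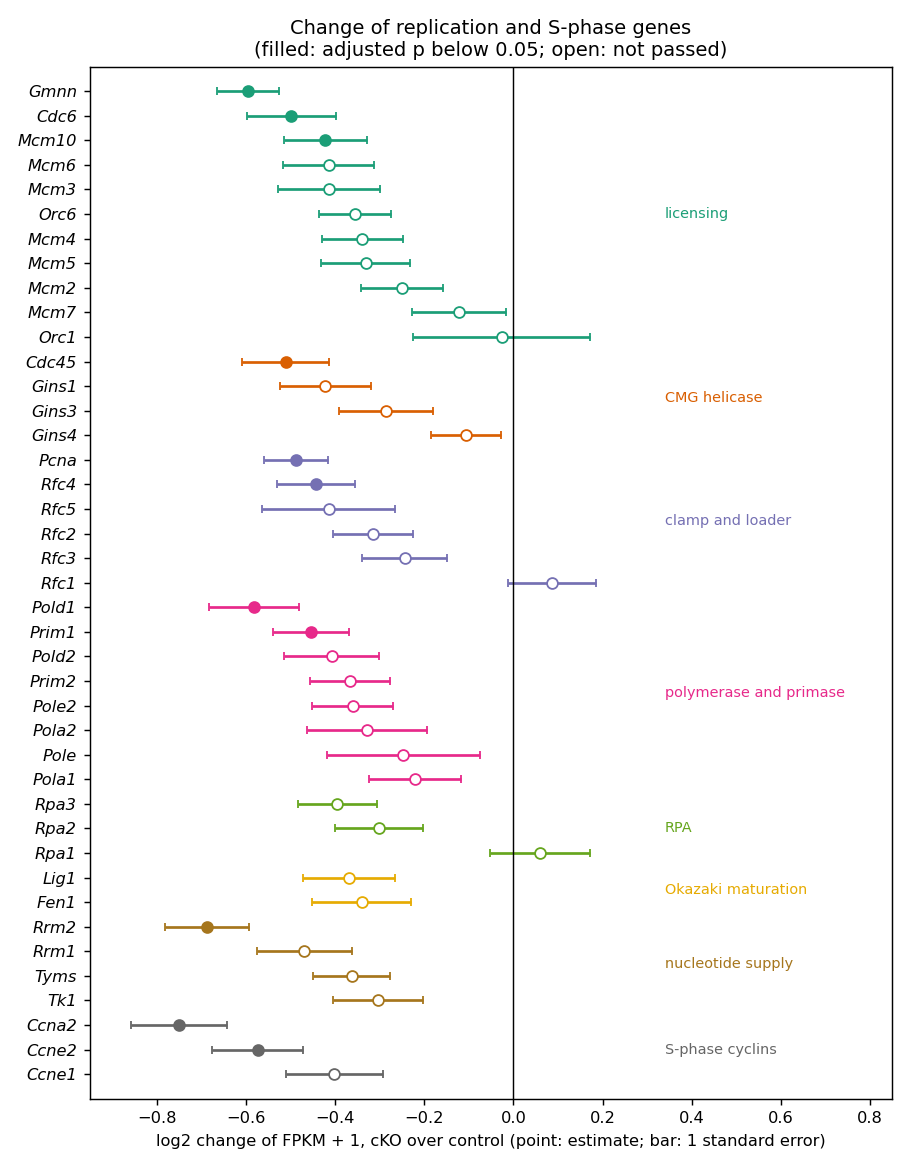
Log2 change of FPKM + 1, cKO over control, for the 41 members by role group, with the point as the limma estimate and the bar as 1 standard error, filled where the adjusted p was below 0.05. The estimates run from -0.75 for Ccna2 to 0.09 for Rfc1, and 39 of 41 lie below 0.

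The lower level was seen in each cKO library. Set against the mean of the 3 controls, the median member stood at 79.8%, 72.2% and 76.5% in cKO 1, cKO 2 and cKO 3, and at 103%, 98.9% and 95.1% in control 1, control 2 and control 3. Below the control mean lay 38, 40 and 40 of the 41 members in cKO 1 to 3, and 11, 24 and 29 of them in control 1 to 3. Of all genes tested, 39.9%, 52.6% and 41.3% lay below it in cKO 1 to 3, and 51.4%, 49.9% and 51.1% in control 1 to 3. The lowest cKO value belonged to cKO 2 in 22 members and the highest to cKO 1 in 24. Among controls, control 3 was lowest in 27 members and control 1 highest in 23. The lowest median of a control library, 95.1%, was still above the highest of a cKO library, 79.8%.

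**Figure D2:**
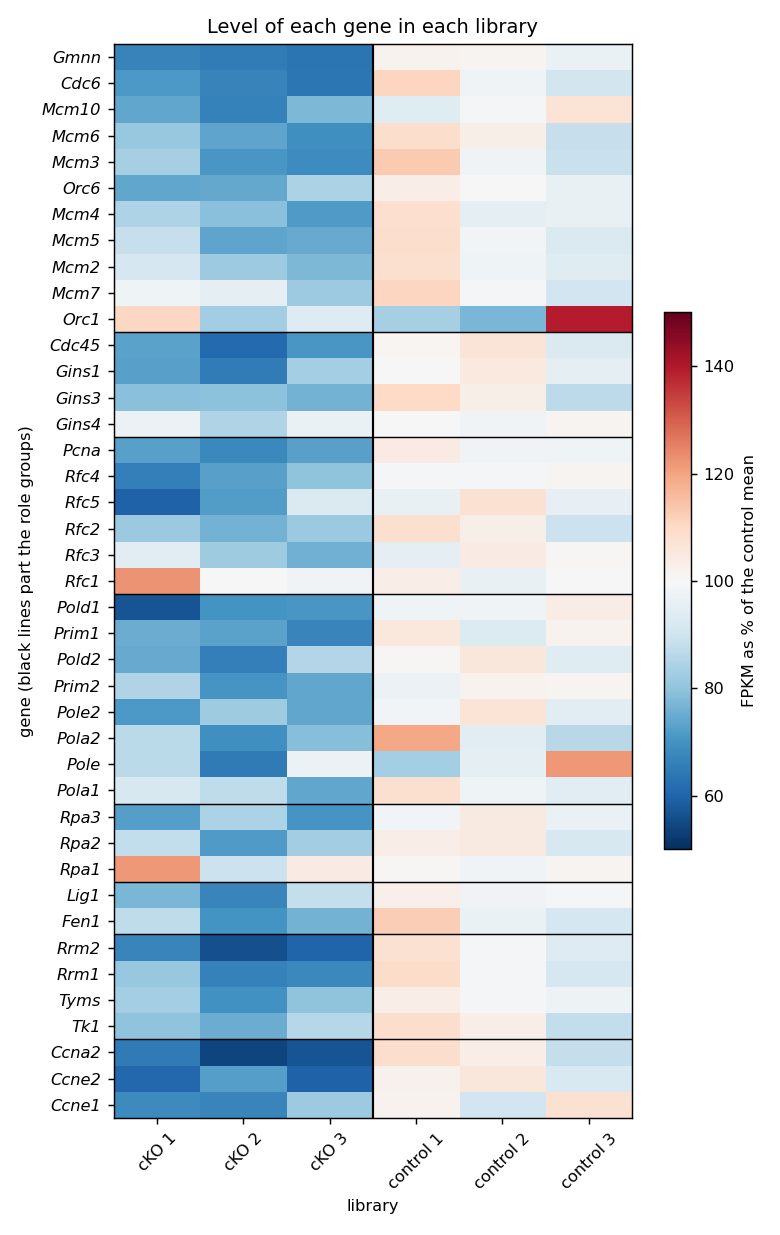
FPKM of each member in each library as a percent of the control mean, cKO libraries on the left and control libraries on the right, with black lines parting the role groups. The cKO columns have medians of 79.8%, 72.2% and 76.5%, and the control columns have medians of 103%, 98.9% and 95.1%.

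The count of members past the test depended on single libraries and on scaling. Without control 1, control 2 or cKO 1 limma called 0 members, although 28, 27 and 33 were lower at an unadjusted p below 0.05. Those counts are 68.3%, 65.9% and 80.5% of the members, against 6.77%, 6.00% and 8.58% of all genes in the same fits. Without control 3, cKO 2 or cKO 3 it called 9, 5 and 7, and in all 6 of these fits the median log2 change of the members lay between -0.39 and -0.33. Centring each library on its median gave 24 members lower, quantile normalisation 18, and keeping genes of any level in the fit only 1.

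RefSeq promoter windows of 300 bases, with 250 before the transcription start and 50 after it (GRCm38.p6, the assembly of mm10), were found for 32 of the 41 members. On either strand, 4 words of the E2F motif were searched, TTTCCCGC, TTTGGCGC, TTTCGCGC and TTTGCCGC. At least 1 of them occurred in 12 of the 32 members, 37.5%, against 4.66% of the 10259 tested genes that have a window and 2.26% of all 32851 windows. Printed here are the 200 bases before the RefSeq start, 5′ to 3′ along the gene. They are given for 5 members with a word there and for 2 that fell and have none. Orc1, Pola1 and Rfc3 also have a word there, at 27, 138 and 10 bases before the start, and are not printed. The gene annotation can place a start elsewhere. By it the Mcm7 and Cdc6 stretches lie wholly inside the gene, and those of Pcna, Gins3 and Rrm2 partly inside. Capitals mark the E2F words or their reverse complements. Mcm6 (chr1:128359706-128359905, minus strand) has a pair of overlapping words 110 and 106 bases before the start and another at 47. Mcm5 (chr8:75109309-75109508, plus strand) has an overlapping pair at 153 and 149. Mcm7 (chr5:138171884-138172083, minus strand) has a word at 165, Cdc6 (chr11:98907951-98908150, plus strand) at 138 and Gins3 (chr8:95633359-95633558, plus strand) at 41. Another RefSeq window of Mcm7, chr5:138171217-138171516, holds none of the 4 words. Rrm2 (chr12:24708054-24708253, plus strand) and Pcna (chr2:132253181-132253380, minus strand) have none of the 4 words, and other forms of the motif were not searched.
Mcm6: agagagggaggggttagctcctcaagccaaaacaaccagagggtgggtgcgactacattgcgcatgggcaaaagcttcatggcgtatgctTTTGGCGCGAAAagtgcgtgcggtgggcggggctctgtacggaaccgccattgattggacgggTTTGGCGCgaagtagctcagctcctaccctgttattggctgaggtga
Mcm5: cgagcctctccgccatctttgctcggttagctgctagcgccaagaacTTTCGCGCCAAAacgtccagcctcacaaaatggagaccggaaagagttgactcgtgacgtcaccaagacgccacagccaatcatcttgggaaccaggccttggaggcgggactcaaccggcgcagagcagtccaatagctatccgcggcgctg
Mcm7: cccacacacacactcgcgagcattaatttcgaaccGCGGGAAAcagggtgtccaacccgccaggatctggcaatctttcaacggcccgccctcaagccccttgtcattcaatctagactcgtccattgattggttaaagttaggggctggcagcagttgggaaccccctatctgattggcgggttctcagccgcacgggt
Cdc6: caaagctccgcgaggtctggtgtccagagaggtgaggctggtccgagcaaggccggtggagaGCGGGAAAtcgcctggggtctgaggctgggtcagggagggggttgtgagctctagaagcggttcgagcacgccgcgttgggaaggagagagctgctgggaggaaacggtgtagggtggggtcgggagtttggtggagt
Gins3: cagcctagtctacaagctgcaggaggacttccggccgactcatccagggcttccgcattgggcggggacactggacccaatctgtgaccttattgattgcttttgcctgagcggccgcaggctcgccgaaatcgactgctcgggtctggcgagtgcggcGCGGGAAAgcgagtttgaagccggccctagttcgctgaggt
Rrm2: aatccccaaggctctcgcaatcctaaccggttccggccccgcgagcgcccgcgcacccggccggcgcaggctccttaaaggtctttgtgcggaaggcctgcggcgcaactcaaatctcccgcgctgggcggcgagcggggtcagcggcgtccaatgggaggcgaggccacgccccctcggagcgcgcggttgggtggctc
Pcna: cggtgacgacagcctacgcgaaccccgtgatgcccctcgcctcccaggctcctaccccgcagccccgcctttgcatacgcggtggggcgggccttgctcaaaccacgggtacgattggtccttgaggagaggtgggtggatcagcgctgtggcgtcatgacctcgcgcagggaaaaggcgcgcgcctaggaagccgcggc

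Among the role groups the E2F words were most frequent in the licensing genes, in 6 of 9 members with a window, and occurred in 0 of the 4 nucleotide supply genes. The 12 members with a word had a median log2 change of -0.35 and included 2 genes that fell, Cdc6 and Pold1, and the 20 with a window but no word had a median of -0.40 and included 6. The words were also in 31.0% of the 29 other replication factors and 42.9% of the 14 chromatin genes with a window. The remaining 9 members have no window in the table used here. The NF-Y box (letters CCAAT, either strand) occurred in 65.6% of members with a window and in 42.8% of the tested genes with one. The CHR word (TTTGAA, either strand), a motif of genes expressed late in the cycle, occurred in 15.6% of members and 14.1% of the tested genes, and in 70.4% of the 27 mitotic genes that have a window. Overlaps between the 3 motifs were not removed. The NF-Y box was in 37.4% and the CHR word in 17.9% of all windows. A word is a run of letters and not a shown binding site.

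**Figure D3:**
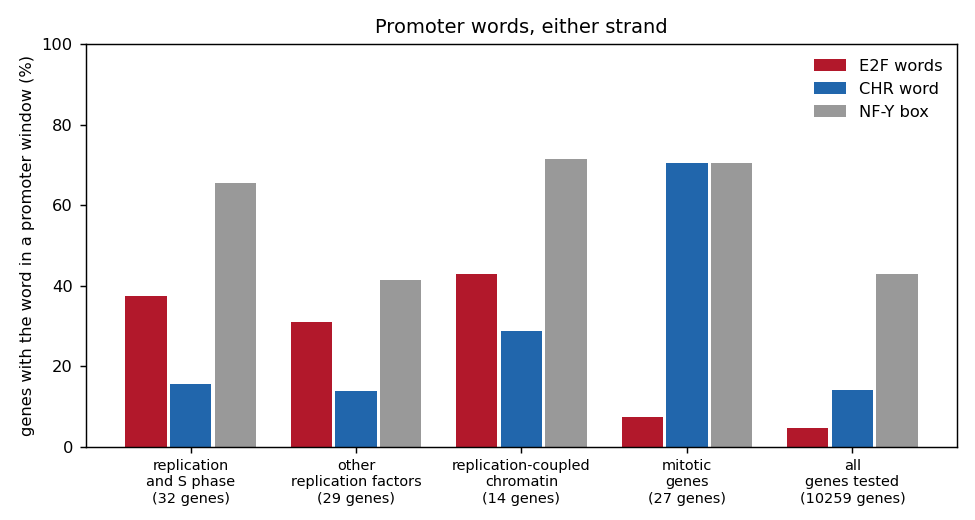
Percent of genes whose promoter window holds an E2F word, the CHR word or the NF-Y box on either strand, for members, 3 related lists (other replication factors, replication-coupled chromatin and mitotic genes) and all tested genes with a window. E2F words are in 37.5% of members and 7.41% of mitotic genes, and the CHR word is in 15.6% of members and 70.4% of mitotic genes.

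Among the 11 licensing genes, 3 fell, 0 rose and all 11 log2 changes were negative, at a median of -0.36. To set beside each role group, 2.09% of all genes tested fell and 41.5% had a negative log2 change. In 12.0% of all genes tested every cKO library lay below every control library. Gmnn, which encodes geminin, the inhibitor that blocks relicensing, had the smallest p and the smallest SE of all members. It lies on chr13:24751845-24761923, minus strand (mm10, Ensembl ENSMUSG00000006715). It measured 19.1, 18.6 and 18.2 FPKM in cKO 1 to 3, against 29.2, 29.1 and 27.6 FPKM in control 1 to 3. All cKO pools were close to 65.0% of the control mean (log2 change -0.59, SE 0.07, limma adjusted p 0.0132). Cdc6, the ATPase that loads the MCM ring, was a low transcript, at 6.10, 5.70 and 5.46 FPKM in cKO and 9.48, 8.40 and 7.78 FPKM in control. Its groups did not overlap, and it fell by 0.50 on the log2 scale (SE 0.10, adjusted p 0.0394). Mcm10, which helps to activate the loaded helicase, measured 8.85, 7.91 and 9.24 FPKM in cKO and 11.2, 11.9 and 12.8 FPKM in control. It fell by 0.42 (SE 0.09), and its adjusted p of 0.04998 lies at the threshold.

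None of the 6 genes of the MCM ring, Mcm2 to Mcm7, passed the limma test, although 5 of them had no overlap between groups. Mcm6 was the most abundant licensing gene over the 6 libraries, although in cKO Mcm7 had the higher mean. It measured 52.4, 47.6 and 44.8 FPKM in cKO, against 70.5, 66.6 and 57.2 FPKM in control (log2 change -0.41, SE 0.10, adjusted p 0.0675). The lowest control lay above the highest cKO library, and cKO 3 and control 3 were the lowest of their groups. Mcm3 had a log2 change of -0.41, Mcm4 of -0.34, Mcm5 of -0.33 and Mcm2 of -0.25. Mcm7 had the smallest change of the ring, at 54.5, 53.1 and 45.5 FPKM in cKO and 61.6, 55.1 and 50.3 FPKM in control, with overlapping groups and a log2 change of -0.12. Per length, the ring genes were not equally abundant. Mcm6 averaged 48.3 ± 3.87 FPKM in cKO and 64.8 ± 6.86 FPKM in control, and Mcm7 averaged 51.0 ± 4.82 and 55.7 ± 5.71 FPKM (SD, n = 3 each). Means of the other 4 ranged from 22.9 to 27.2 FPKM in cKO and from 29.3 to 34.2 FPKM in control. Exons of Mcm7 overlap those of Cops6 and Ap4m1 on the opposite strand, and the strand setting of the counting is not given in the sources used here. Cops6 stood at 86.8 to 102 FPKM in cKO and 91.1 to 100 FPKM in control.

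The list holds 2 genes of the origin recognition complex, and neither passed. Orc6 measured 21.2 ± 1.55 FPKM in cKO and 27.3 ± 0.957 FPKM in control (SD, n = 3 each), a log2 change of -0.36 at an adjusted p of 0.0560. Orc1 measured 5.87, 4.39 and 4.98 FPKM in cKO and 4.43, 4.11 and 7.42 FPKM in control. Control 3 was the highest of the 6 and the other controls were among the lowest. Its log2 change was -0.03 with an SE of 0.20, and 0.20 without control 3.

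In the CMG helicase group 1 of 4 genes fell and all 4 log2 changes were negative. Cdc45, which holds the helicase together with GINS, measured 11.3, 9.45 and 11.0 FPKM in cKO, against 15.7, 16.5 and 14.3 FPKM in control. Its exons overlap those of Ufd1 on the opposite strand. The groups were well apart (log2 change -0.51, SE 0.10, adjusted p 0.0371). The genes of 3 GINS subunits were tested, and none passed by limma, with 2 lower at an unadjusted p below 0.05. Gins1 had a log2 change of -0.42 and Gins3 of -0.29, at adjusted p of 0.0641 and 0.153. Gins4, the most abundant of the group, measured 35.6, 31.2 and 35.5 FPKM in cKO and 36.8, 36.1 and 37.1 FPKM in control. Its groups did not overlap, yet the log2 change was only -0.11 (SE 0.08, adjusted p 0.456). Whether these subunits differ from Cdc45 in their change was not tested.

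**Figure D4:**
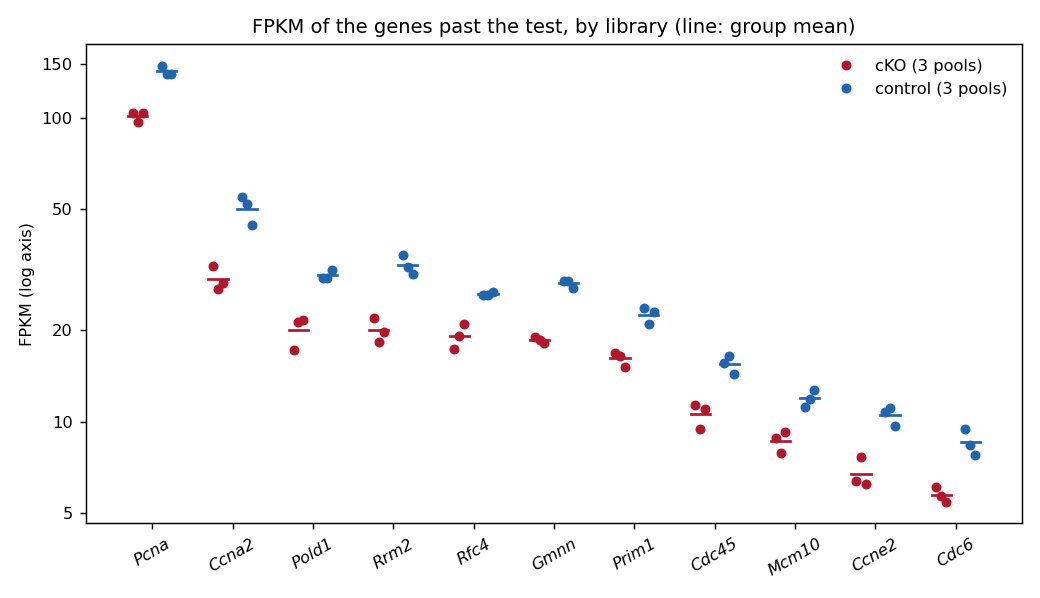
FPKM on a log axis of the 11 genes past the test, with points for the 3 cKO libraries left of the 3 control libraries and a line at each group mean. In all 11 genes the highest cKO point lies below the lowest control point, from Pcna at means of 101 FPKM in cKO and 143 FPKM in control down to Cdc6 at 5.75 and 8.55 FPKM.

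Pcna, the sliding clamp that tethers polymerases to DNA, was the most abundant member (chr2:132249162-132253314, minus strand). It measured 104, 96.8 and 104 FPKM in cKO, against 148, 140 and 139 FPKM in control. The 2 groups were each tight and far apart (log2 change -0.49, SE 0.07, adjusted p 0.0213). The Pcna pseudogenes in the table stood at no more than 0.0843 FPKM in any library. The clamp is loaded by replication factor C, whose 5 subunit genes had log2 changes from -0.44 to 0.09. Rfc4 measured 17.3, 19.2 and 21.0 FPKM in cKO and 26.1, 26.1 and 26.7 FPKM in control, and fell by 0.44 (SE 0.09, adjusted p 0.0386). Its exons overlap those of the abundant Eif4a2 on the opposite strand, which stood at 239 to 259 FPKM in cKO and 259 to 303 FPKM in control. Rfc5 had a log2 change of -0.41 with a larger SE of 0.15, Rfc2 of -0.32 and Rfc3 of -0.24. Rfc1, the large subunit, measured 25.8, 21.1 and 20.7 FPKM in cKO and 21.8, 20.3 and 21.1 FPKM in control, with overlapping groups. Its log2 change of 0.09 became -0.01 without cKO 1.

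Of the 8 polymerase and primase genes, 2 fell and all 8 log2 changes were negative, from -0.58 to -0.22. Pold1, the catalytic subunit of polymerase delta, measured 17.2, 21.3 and 21.5 FPKM in cKO, against 29.7, 29.8 and 31.5 FPKM in control. It stood at 66.0% of the control mean (log2 change -0.58, SE 0.10, adjusted p 0.0313). Its partner subunit gene Pold2 was the most abundant of the group, at 39.3, 34.6 and 44.9 FPKM in cKO and 53.0, 55.5 and 49.4 FPKM in control. The groups of Pold2 did not overlap, but the cKO libraries were spread, and the change of -0.41 had an SE of 0.11 and an adjusted p of 0.0773. Prim1, the catalytic primase subunit that makes the RNA primers, measured 16.9, 16.5 and 15.1 FPKM in cKO and 23.7, 20.9 and 22.9 FPKM in control. It fell by 0.45 on the log2 scale (SE 0.08, adjusted p 0.0351). Its partner Prim2 had a log2 change of -0.37 (adjusted p 0.0660). Pola1, the catalytic subunit of polymerase alpha, had a change of -0.22. Its partner Pola2 measured 16.4, 13.1 and 14.9 FPKM in cKO and 22.6, 18.0 and 16.3 FPKM in control, with overlap between cKO 1 and control 3 and a change of -0.33 (adjusted p 0.189). For polymerase epsilon, the catalytic subunit gene Pole measured 8.98, 6.71 and 10.1 FPKM in cKO and 8.61, 9.89 and 12.6 FPKM in control. Those groups overlapped, at a log2 change of -0.25, while its partner Pole2 had -0.36 with no overlap and an adjusted p of 0.0719.

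None of the 3 genes of RPA, the single-strand binding complex, passed the limma test, although 2 were lower at an unadjusted p below 0.05. Rpa1, the large DNA-binding subunit, measured 62.2, 45.6 and 53.3 FPKM in cKO and 51.3, 50.2 and 51.7 FPKM in control. The cKO libraries lay on both sides of the tight controls, at a log2 change of 0.06 (SE 0.11) that was -0.05 without cKO 1. Rpa3, the small subunit, measured 32.8, 38.2 and 32.1 FPKM in cKO, against 44.8, 47.4 and 43.9 FPKM in control. Its change of -0.39 had an SE of 0.09 and an adjusted p of 0.0530, just outside the threshold, and Rpa2 had a change of -0.30. Both genes of Okazaki fragment maturation also missed the limma threshold, and both were lower at an unadjusted p below 0.05. Lig1, the ligase that seals the fragments, measured 37.8, 32.8 and 43.1 FPKM in cKO and 50.2, 48.1 and 48.5 FPKM in control (log2 change -0.37, SE 0.10, adjusted p 0.0884). Fen1, the flap nuclease, had a change of -0.34.

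The nucleotide supply genes were all lower in every cKO library than in any control library, and 1 of 4 passed. Of all genes tested, 12.0% were lower in every cKO library and 2.09% fell. Rrm2, the regulated subunit of ribonucleotide reductase (chr12:24708241-24714146, plus strand), measured 21.9, 18.3 and 19.7 FPKM in cKO, against 35.3, 32.4 and 30.6 FPKM in control. At 61.0% of the control mean it had the second largest decrease of the members (log2 change -0.69, SE 0.09, adjusted p 0.0194). Rrm1, the other subunit, had a change of -0.47 and an adjusted p of 0.0547. Tyms, thymidylate synthase, was the most abundant of the group, at 49.5, 41.5 and 47.6 FPKM in cKO and 61.6, 59.0 and 58.0 FPKM in control. Its change was -0.36 with an SE of 0.09 and an adjusted p of 0.0606. Tk1, the thymidine kinase of the salvage pathway, had a change of -0.30 (adjusted p 0.126).

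Of the 3 S-phase cyclins, 2 fell. Ccna2, the cyclin A gene of S and G2 phases, had the largest decrease of the 41 members (chr3:36564865-36572150, minus strand). It measured 32.6, 27.3 and 28.6 FPKM in cKO, against 54.8, 51.9 and 44.2 FPKM in control, or 58.6% of the control mean. The log2 change was -0.75, with an SE of 0.11 and an adjusted p of 0.0204. Ccne2, a cyclin E gene, measured 6.38, 7.63 and 6.25 FPKM in cKO and 10.7, 11.1 and 9.70 FPKM in control. It fell by 0.57 (SE 0.10, adjusted p 0.0333), and its paralog Ccne1 had a change of -0.40 at an adjusted p of 0.0820. Exons of Ccna2 overlap those of Exosc9 and exons of Ccne2 those of Ints8, each on the opposite strand. Exosc9 stood at 25.0 to 30.7 FPKM in cKO and 27.7 to 28.8 FPKM in control, and Ints8 at 18.6 to 22.3 FPKM in cKO and 23.7 to 28.2 FPKM in control. Of the members that did not pass, Orc6, Rfc2, Rfc5, Fen1, Lig1 and Tk1 also overlap a protein-coding gene on the opposite strand. Exons of Pole2 share 245 bases with the protein-coding gene Gm49384 on the same strand, where no strand setting could part them.

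Other genes of the pathway were counted from lists of related factors. Over all genes tested, 2.09% fell, 9.80% were lower at an unadjusted limma p below 0.05 and 41.5% had a negative log2 change. Among 36 further replication factors, 2 fell (5.56%) and 33 log2 changes were negative (91.7%), at a median of -0.24. At an unadjusted p below 0.05 limma gave 18 of the 36 lower (50%). Those that fell were Dbf4, the activator of the kinase Cdc7, at 16.6 ± 1.95 FPKM in cKO and 24.0 ± 1.14 FPKM in control, and Rnaseh2a, a subunit of ribonuclease H2, at 48.8 ± 4.80 and 66.8 ± 2.86 FPKM (SD, n = 3 each). Of 17 other genes of nucleotide supply 1 fell (5.88%) and 13 log2 changes were negative (76.5%), at a median of -0.20. At an unadjusted limma p below 0.05, 7 of these 17 were lower (41.2%) and 0 higher. Of 17 E2F, RB and MuvB genes, E2f8, an E2F repressor, fell by 0.58 (adjusted p 0.0380), and the list median was -0.15. E2f8 was the only gene of that list to fall (5.88%), and 13 log2 changes were negative (76.5%). In the same list 6 genes were lower (35.3%) and 1 higher at an unadjusted limma p below 0.05. The calls in these lists rest on 1 or 2 genes each.

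Chromatin factors coupled to replication were split in direction. Of 14 such genes, 1 fell (7.14%), 8 log2 changes were negative (57.1%) and the median was -0.11. At an unadjusted limma p below 0.05, 3 were lower (21.4%) and 2 higher. Pclaf, the PCNA-associated factor, measured 26.8, 26.9 and 23.2 FPKM in cKO and 42.98, 41.1 and 37.8 FPKM in control. It fell by 0.65 (SE 0.09, adjusted p 0.0201). Dnmt1, the maintenance DNA methyltransferase, and its partner Uhrf1 were chosen for mention after their values were seen. Dnmt1 measured 78.2, 72.3 and 86.9 FPKM in cKO and 66.2, 66.1 and 60.1 FPKM in control, with every cKO library above every control. Uhrf1 measured 72.4, 55.6 and 73.8 FPKM in cKO and 55.3, 55.3 and 52.7 FPKM in control. Neither passed, at log2 changes of 0.30 and 0.29 and adjusted p of 0.104 and 0.1805.

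Mitotic genes, which act after S phase, were also lower. Of 30 tested, 13 fell (43.3%, against 2.09% of all genes), 0 rose, and all 30 log2 changes were negative, at a median of -0.53. Top2a, the topoisomerase that untangles sister DNA, measured 47.2, 42.8 and 41.3 FPKM in cKO, against 83.0, 80.0 and 79.2 FPKM in control. It fell by 0.87 (SE 0.08, adjusted p 0.00918). Bub1, a spindle checkpoint kinase, fell by 0.81, Spc25, a kinetochore protein, by 0.79 and Aurkb, the Aurora B kinase, by 0.86. The median of the mitotic list lay below that of the members, and the difference between the lists was not tested. The D cyclins and CDK inhibitors, which set entry into the cycle, gave 0 passing genes of 11 by limma, with 0 lower and 1 higher at an unadjusted p below 0.05 and a median of 0.15. The list of D cyclins and CDK inhibitors also holds the kinase genes Cdk4 and Cdk6. Its most abundant gene, Cdk4, averaged 460 ± 37.7 FPKM in cKO and 512 ± 50.5 FPKM in control (SD, n = 3 each). Ccnd2 averaged 49.5 ± 0.735 FPKM in cKO and 59.5 ± 9.83 FPKM in control (SD, n = 3 each). Cdkn1c, named after its values were seen, encodes the CDK inhibitor p57. It measured 13.2, 9.81 and 11.0 FPKM in cKO and 5.25, 4.68 and 8.10 FPKM in control, a log2 change of 0.83 at an adjusted p of 0.0541.

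**Figure D5:**
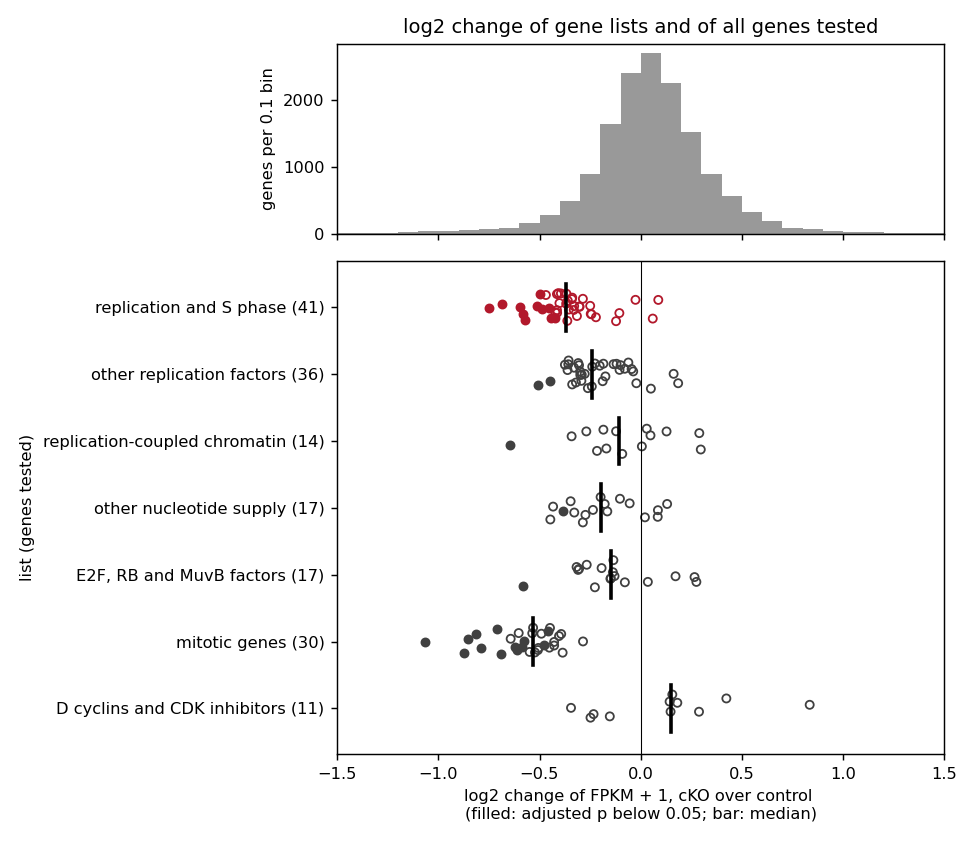
Number of tested genes per 0.1 bin of log2 change (top) and log2 change of each gene in the members and in 6 related lists (bottom), cKO over control, filled where the adjusted p was below 0.05, with a bar at each list's median. The medians are -0.37 for the members, -0.53 for the mitotic genes and 0.15 for the D cyclins and CDK inhibitors, and that of all genes is 0.05.

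Markers of ovarian cell types also differed between the groups. Of 12 granulosa cell markers, 4 fell and 0 rose, and none was at 0. Their mean log2 level was 6.61, 6.49 and 6.55 in cKO 1 to 3, against 7.15, 6.86 and 6.79 in control 1 to 3, so the groups did not overlap. The 4 that fell were Inha, Inhbb and Hsd17b1, genes of inhibin and steroid synthesis, and Serpine2, with log2 changes from -1.49 to -0.67. The granulosa transcription factor gene Foxl2 was not lower, at 140, 93.2 and 114 FPKM in cKO and 89.2, 77.5 and 86.9 FPKM in control (log2 change 0.43, adjusted p 0.128). Kctd14 also lay above every control in each cKO library, at 570, 543 and 496 against 362, 329 and 462 FPKM (log2 change 0.49, adjusted p 0.0825). Of the 12 log2 changes of these markers, 8 were negative and 4 positive, with 6 lower and 2 higher at an unadjusted limma p below 0.05. Amh stood at 238 ± 18.8 FPKM in cKO and 253 ± 39.5 FPKM in control (SD, n = 3 each). Of 12 oocyte markers 3 rose, Zp2, Zp3 and Figla, and the mean log2 level of the list was 6.43, 6.30 and 6.89 in cKO and 6.01, 6.17 and 6.09 in control. In that list 10 log2 changes were positive and 2 negative, with Bmp15 at -0.67 (adjusted p 0.381) among the latter. At an unadjusted limma p below 0.05, 7 of these 12 markers were higher and 0 lower. Of 7 stroma markers 2 rose, Pdgfra and Tcf21, with list means of 7.68, 7.25 and 7.26 in cKO and 6.86, 6.88 and 6.99 in control. All 7 stroma log2 changes were positive, and 6 were higher and 0 lower at an unadjusted limma p below 0.05. Of all 14934 genes tested, 3630 passed that level in either direction. Among the theca, surface epithelium, endothelial, immune and red blood cell markers limma called none of 30, with 1 theca and 1 endothelial gene higher and none lower at an unadjusted p below 0.05, and among 4 adipose markers 1 rose. Of 18 reference genes 0 passed, with 3 lower and 2 higher at an unadjusted p below 0.05, and their median log2 change was -0.07. The part of these markers in the lower level of the replication genes was not tested. With each library centred on its granulosa markers, the members had a median log2 change of 0.01 and all genes one of 0.43. Centring shifts every gene of a library alike, so the distance of -0.41 between these medians is the same by construction and does not bear on the granulosa markers. On that scale 1 member, Ccna2, was lower and 2, Rfc1 and Rpa1, were higher.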

How the data were processed

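RNA sequencing of total RNA from ovaries (RNeasy micro kit, Illumina HiSeq 2500, per the labels) gave 6 libraries, all named as lane 6. The authors deposited FPKM per Ensembl gene. The submitters' processing notes list TopHat2 2.0, Cufflinks 2.0 and the build mm10, without saying what each was used for. Annotation, strand setting and scaling steps are not given in the sources used. Because FPKM divides by a library total, a rise of abundant transcripts lowers all other values.

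Groups follow the genotype label, and replicate numbers, given in deposit order, are names only. Results of some genes, the targeted gene among them, are not reported here, so the genotype labels were not checked from values. Of the list, 41 of 43 symbols were found. The members and the related lists were chosen with earlier results of these data known, so their counts are descriptions and no test was made of a list. Depth was estimated from low FPKM values, each read as 1 fragment, and no interval was built on it.

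limma 3.58.1 in R 4.3.3 (lmFit, eBayes with a mean-variance trend) was run on log2(FPKM + 1) for 14934 genes with a mean of at least 0.5 FPKM, with Benjamini-Hochberg adjustment over all of them and a threshold of 0.05. This scale understates the change of low genes. The fit was also run on simulated data. That run used independent noise and added changes larger than any member's, so it does not bear on these results. Values were given per library for members that passed and, in each role group, for the most abundant member and the one with the smallest p. Related lists are represented by up to 4 passing genes with the smallest p, or by the 2 most abundant where none passed. Further members are given per library where their groups overlapped.

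Promoter windows and their coordinates (1-based, GRCm38.p6) come from RefSeq. Exon overlaps come from the gene annotation of the same assembly. Of the 37 member windows, 32 had a transcribed end that matched a transcript as written and 0 one reversed. Alternatives were pseudocounts of 0.1 and 0.5, no filter, a mean of at least 2 FPKM, quantile normalisation, centring on the median, on reference genes or on granulosa markers, other eBayes settings, array weights, leaving out each library, and a search of the forward strand only. After the data were seen, 3 more were added. They were leaving out control 3 and cKO 3 together, comparing cKO 1 alone with the controls, and rescaling without mitochondrial and globin genes.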

Additional observations from a re-analysis of the deposited data

How the results depend on the processing

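With 3 pools per group, the number of passing genes moved far more than the direction. No paired analysis was possible because no label numbers the replicates. Members that fell numbered 11, and 9 to 14 with either other pseudocount, with a mean of at least 2 FPKM, with centring on reference genes, with eBayes run without trend or robustly, and with rescaling without mitochondrial and globin genes. They numbered 1 without a filter, 18 with quantile normalisation, 24 with median centring, 23 with array weights, 1 with granulosa centring, 5 without control 3 and cKO 3 together and 0 for cKO 1 alone against the controls, where the lone library is assumed to vary like the others. That last setting gave 20 members (48.8%) lower at an unadjusted p below 0.05, against 7.73% of all genes. The titles carry numbers of no stated meaning in separate ranges, 1 of which holds cKO 1 and the controls. Leaving out 1 library gave 0 to 9 members lower, with 27 to 33 (65.9% to 80.5%) at an unadjusted p below 0.05, against 6.00% to 10.3% of all genes. Members higher numbered 0 throughout, except 2 with granulosa centring. The members' median log2 change of -0.37 became -0.43 with median centring, -0.29 for cKO 1 alone and 0.012 with granulosa centring, and ran from -0.39 to -0.33 with 1 library left out.

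Of all genes, 312 fell and 334 rose. The pair of counts became 24 and 4 without a filter, 577 and 254 with median centring, 421 and 270 with quantile normalisation, 133 and 6812 with granulosa centring, 743 and 1041 with array weights and 2 and 22 for cKO 1 alone. Leaving out 1 library gave 9 to 388 lower and 2 to 352 higher. In the 6 related lists, 18 genes fell and 0 rose. Those lower numbered 4 without a filter, 29 with quantile normalisation, 30 with median centring, 5 with granulosa centring, 41 with array weights, 0 for cKO 1 alone and 0 to 23 with 1 library left out. Those higher numbered 1 with a pseudocount of 0.1, a mean of at least 2 FPKM, quantile normalisation, reference genes, robust eBayes or control 3 and cKO 3 left out, 22 with granulosa centring, 3 with array weights, 2 with rescaling and 0 to 1 with 1 library left out. On the forward strand only, 15.6% of members held an E2F word and 34.4% an NF-Y box, against 2.42% and 24.9% of tested genes.

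Orc1 changed sign most often. Its log2 change was 0.0078 with reference genes, 0.35 with granulosa centring, 0.17 with array weights, 0.20 without control 3, 0.06 without cKO 2, 0.21 without control 3 and cKO 3, 0.16 for cKO 1 alone and 0.017 with rescaling. With 1 library left out it ran from -0.16 to 0.20. Rfc1 came to -0.0096 without cKO 1. Rpa1 came to -0.0064 with median centring and to -0.050 without cKO 1. Granulosa centring, which raises the median of all genes to 0.43, turned the sign of 19 further members. These were Orc6 0.024, Mcm2 0.13, Mcm4 0.041, Mcm5 0.048, Mcm7 0.26, Gins3 0.093, Gins4 0.27, Rfc2 0.064, Rfc3 0.14, Pola1 0.16, Pola2 0.050, Prim2 0.012, Pole 0.13, Pole2 0.019, Rpa2 0.077, Fen1 0.039, Lig1 0.011, Tyms 0.017 and Tk1 0.076. In the other pairs of member and setting, 645 kept their side of the threshold and their direction, 96 lost the call and 49 gained it. The cause of these moves was not tested. Depth limits Gins3, Ccne1 and Orc1 most, and Gins3 had 247 estimated fragments in its lowest library.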
